A study of Mus musculus with 79 samples.

Results

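E3 is a clone of E14 mouse embryonic stem cells that lacks a transient enhancer of the Hoxb locus. The data described here are its nuclear RNA over the first 6 h of retinoic acid. All 8 libraries of the clone between 0 and 6 h were taken by their labels, out of 79 samples in the series. There were 2 libraries each at 2, 4 and 6 h of 1 uM retinoic acid, and 2 untreated libraries at 0 h. No untreated E3 library was taken at 2, 4 or 6 h. A change against 0 h by retinoic acid thus cannot be told apart from one by handling or time in culture. The cells were grown with serum and LIF before treatment. All E3 libraries carry the deletion (genotype label E14;HoxTransEdel), the 0 h libraries included. E3 is a single clone, so a property of this clone and a property of the deletion cannot be told apart within it. The nuclear RNA set also holds a second deletion clone, H12, and a wild-type clone, G4 (genotype label E14;HoxTransEwt), each with 8 libraries at the same 4 times. Levels at later times entered no E3 comparison. The tests came from 1 fit over the 42 libraries of the 3 clones, later times included, which set the filter, scaling and spread. The coordinates of the deletion are not given in the sources used here, and no value in the table checks it. The labels do not say whether the 2 libraries of a group came from separate cultures. The p-values thus measure the spread between libraries of a group, pooled over the groups of this fit, which may be technical.

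Retinoic acid enters the nucleus and binds retinoic acid receptors, which sit on DNA as partners of retinoid X receptors and switch from holding back to activating their targets when the ligand arrives. A classical site for this pair is a direct repeat of a short motif spaced by 5 bases, the DR5 element. Among the direct targets are enzymes that destroy retinoic acid and 3′ genes of the Hox clusters, which are turned on one after another along each cluster. Embryonic stem cells exposed to retinoic acid lose pluripotency and take on neural or endodermal features. Nuclear RNA holds a large share of unspliced transcripts, and reads here were counted over the whole span of a gene, introns included.

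Depth was 5701695 to 8603592 reads per E3 library, and 15896 genes were tested. The embryonic stem cell markers listed for this work (Pou5f1, Sox2, Nanog, Zfp42, Esrrb, Dppa5a, Tdgf1 and Utf1) all had reads at every time. Their summed level was 1989 and 1940 CPM (read counts scaled to a common library size) at 0 h, 1853 and 1785 CPM at 2 h, 1450 and 1676 CPM at 4 h, and 1321 and 1490 CPM at 6 h. The 2 libraries of a group differed by more than sampling noise in all 4 groups, with a chi-square per gene of 13.8 at 0 h, 8.09 at 2 h, 6.31 at 4 h and 5.17 at 6 h.

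Changes against 0 h were present from 2 h, with genes called in both directions at each time. A gene was called when its adjusted p was under 0.05 (edgeR quasi-likelihood test, Benjamini-Hochberg adjustment over all genes tested). At 2 h against 0 h, 238 genes were called higher, 1.5% of those tested, and 404 were called lower, 2.54%. At 4 h the counts were 319 higher (2.01%) and 463 lower (2.91%), and at 6 h they were 529 higher (3.33%) and 304 lower (1.91%). Changes of at least 2-fold numbered 109 higher (0.686%) and 138 lower (0.868%) at 2 h, 157 (0.988%) and 187 (1.18%) at 4 h, and 281 (1.77%) and 133 (0.837%) at 6 h. The shares called over all genes are the background for the counts of list members below, and no list was tested as a set. The median log2 fold change of all genes tested lay within 0.03 of 0 at each time. The scaling of the libraries sets this median near 0, so a shift shared by most genes would not be seen and was not tested. Between 6 h and 2 h, 623 genes were called higher at 6 h (3.92%) and 260 lower (1.64%), of which 232 (1.46%) and 72 (0.453%) changed at least 2-fold. The authors' deposited table holds their own DESeq2 comparisons per transcript. In the authors' deposited table, 669 transcripts were higher and 1024 lower at 2 h, 681 and 1237 at 4 h, and 1045 and 822 at 6 h, at an adjusted p under 0.05. Counted as genes with at least 1 such transcript, these were 422 and 633, 427 and 731, and 626 and 506.

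The counts and their balance moved with single libraries. At 2 h, 77 genes were called higher and 71 lower without 0 h replicate 2, and 64 higher and 37 lower without 2 h replicate 1. Without 0 h replicate 1 the counts at 2 h were 106 and 461. At 4 h they were 134 and 94 without 0 h replicate 2, 141 and 117 without 4 h replicate 1, and 174 and 174 without 4 h replicate 2. At 6 h they were 264 and 88 without 0 h replicate 2, 234 and 61 without 6 h replicate 1, 327 and 160 without 6 h replicate 2, and 293 and 328 without 0 h replicate 1. For 6 h against 2 h they were 85 and 27 without 2 h replicate 1, 182 and 19 without 6 h replicate 1, and 251 and 41 without 6 h replicate 2. An excess of lower genes at 2 and 4 h, and of higher genes at 6 h, thus did not hold without each library. Of 167 calls of named genes, 68 held without any one of the libraries compared.

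**Figure D1:**
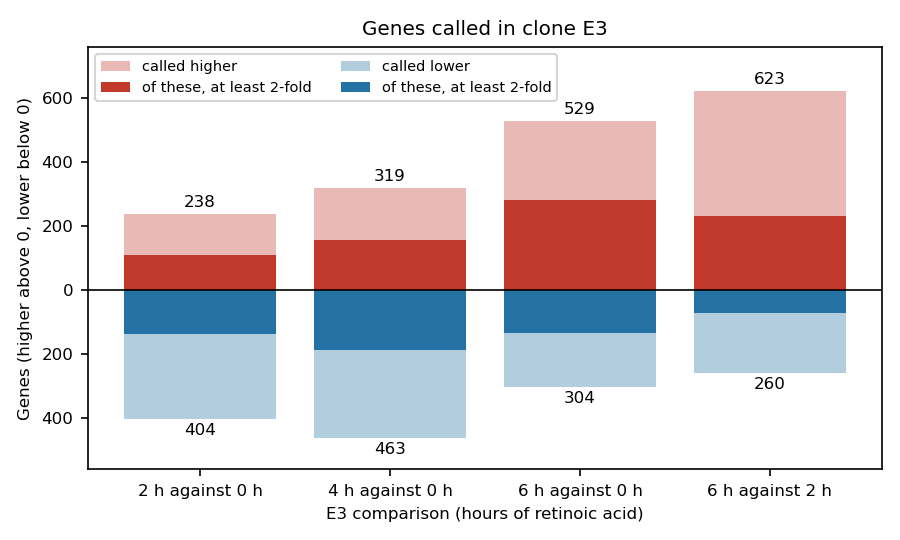
Number of genes called higher (red, above 0) and lower (blue, below 0) in each E3 comparison; the dark part of a bar holds genes that changed at least 2-fold. With all libraries, 238 genes were higher and 404 lower at 2 h, 319 and 463 at 4 h, and 529 and 304 at 6 h; the balance moved when single libraries were left out.

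Cyp26a1 and Rarb, both called higher at 2 h, hold a DR5 retinoic acid response element in their RefSeq promoter (GRCm38.p6, 250 bases before to 50 bases after the start). Ano1, also called at 2 h, holds a DR2 element, in which the repeated motifs are 2 bases apart. The motif was AGGTCA, with guanine also allowed at its first base and thymine at the third, searched on both strands. These promoters are printed because they belong to genes that rose at the first time sampled, and Ano1 was chosen after its promoter had been read. Capitals mark the repeated motifs of the element, with the bases between them in lower case. Each sequence runs 5′ to 3′ on the strand of its gene.
Cyp26a1, chr19:37697558-37697857: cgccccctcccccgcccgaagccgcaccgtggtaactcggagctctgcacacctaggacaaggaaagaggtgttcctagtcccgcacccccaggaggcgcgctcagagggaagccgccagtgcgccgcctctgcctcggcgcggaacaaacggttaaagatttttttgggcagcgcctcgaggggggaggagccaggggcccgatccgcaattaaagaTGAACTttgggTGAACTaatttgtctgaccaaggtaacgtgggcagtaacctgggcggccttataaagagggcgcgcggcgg
Rarb, chr14:16575427-16575726: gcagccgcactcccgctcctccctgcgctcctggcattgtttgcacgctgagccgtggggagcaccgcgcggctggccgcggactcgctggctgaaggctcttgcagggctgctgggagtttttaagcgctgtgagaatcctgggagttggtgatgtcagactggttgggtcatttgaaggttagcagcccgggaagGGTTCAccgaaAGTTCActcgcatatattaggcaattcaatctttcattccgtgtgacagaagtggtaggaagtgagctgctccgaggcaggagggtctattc
Ano1, chr7:144738524-144738823: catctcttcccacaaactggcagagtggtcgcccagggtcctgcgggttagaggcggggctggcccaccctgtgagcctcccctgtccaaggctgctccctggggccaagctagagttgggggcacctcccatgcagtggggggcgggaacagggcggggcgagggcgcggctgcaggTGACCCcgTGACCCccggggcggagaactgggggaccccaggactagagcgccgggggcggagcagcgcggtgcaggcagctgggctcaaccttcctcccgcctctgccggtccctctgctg
The Cyp26a1 element begins 32 bases before the annotated start, the Rarb element 53 bases before it and the Ano1 element 72 bases before it. The elements of Cyp26a1 and Ano1 read on the opposite strand. The Rarb promoter printed is that of the shorter transcripts, and it lies inside the long transcript whose span was counted. Of the 238 genes called higher at 2 h, 185 had a promoter in the table, and 2 of these held a DR5 (1.08%) and 1 a DR2 (0.541%). Among 27025 genes with a promoter in the table, 31 held a DR5 (0.115%) and 84 a DR2 (0.311%), and among the 11971 tested genes with a promoter the counts were 8 (0.0668%) and 12 (0.1%). Of the 285 genes called lower at 2 h that had a promoter, 0 held either element in this window. A match is a description of the letters in this window, and 2 genes are too few to read a share from.

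Of the enzymes that clear retinoic acid, Cyp26a1 and Dhrs3 were called from 2 h. Cyp26a1, the P450 hydroxylase that breaks down retinoic acid (chr19:37697808-37701536, mm10), was at 2.56 and 1.52 CPM at 0 h, 42.4 and 41.2 CPM at 2 h, 149 and 115 CPM at 4 h, and 264 and 171 CPM at 6 h. All 6 treated libraries lay above both 0 h libraries, and the groups did not overlap from one time to the next. Its log2 fold change against 0 h was 4.34 ± 0.62 at 2 h (SE, adjusted p = 0.00013, edgeR), 6.00 ± 0.60 at 4 h and 6.72 ± 0.60 at 6 h. It was also called higher at 6 h than at 2 h (2.38 ± 0.43, adjusted p = 0.0019, edgeR, and 0.056 without 2 h replicate 1). Dhrs3, a retinaldehyde reductase that limits retinoic acid synthesis, was at 9.84 and 7.20 CPM at 0 h, 44.5 and 32.4 CPM at 2 h, 60.9 and 51.6 CPM at 4 h, and 76.2 and 72.7 CPM at 6 h. Its call at 2 h was lost without 0 h replicate 2 or 2 h replicate 1 (adjusted p = 0.14 and 0.13, edgeR), and those at 4 and 6 h were not lost without any one library. Cyp26b1, a second member of the hydroxylase family, followed at 4 h. It was at 0.404 and 0.277 CPM at 0 h (5 reads in the 2 libraries), 3.87 and 2.14 CPM at 2 h, 9.46 and 8.31 CPM at 4 h, and 17.5 and 11.5 CPM at 6 h. Its adjusted p was 0.19 at 2 h and 0.0055 at 4 h (edgeR), and that at 4 h was 0.12 without 0 h replicate 2 and 0.054 without 0 h replicate 1. Cyp26c1 was called at 6 h alone (log2 fold change 1.80 ± 0.49, adjusted p = 0.023, edgeR), and that call was lost without any one of the 4 libraries compared (adjusted p = 0.075 to 0.22). Of the 4 tested members of this group, 2 were called higher at 2 h, 3 at 4 h and 4 at 6 h, beside 1.5%, 2.01% and 3.33% of all genes. The median log2 fold change of the 4 was 2.60 at 2 h, 3.67 at 4 h and 4.23 at 6 h. Over all genes it was 0.02, 0.01 and -0.0002.

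Among 12 receptors and cofactors, Rarb, Nrip1 and Rara were called higher at each time, and the retinoid X receptors were not called. Rarb, the receptor gene with the promoter printed above (chr14:16430840-17082331, mm10), was at 7.68 and 8.86 CPM at 0 h, 54.8 and 56.0 CPM at 2 h, 79.7 and 67.0 CPM at 4 h, and 96.9 and 77.3 CPM at 6 h. The 2 h libraries lay far above those at 0 h, and the step from 2 to 6 h did not pass the test (0.65 ± 0.22, adjusted p = 0.083, edgeR). Nrip1, a ligand-dependent corepressor, was at 50.01 and 41.4 CPM at 0 h, 182 and 160 CPM at 2 h, 271 and 198 CPM at 4 h, and 277 and 230 CPM at 6 h. The calls of Rarb and Nrip1 held without any one library. Rara, a second receptor gene, had log2 fold changes of 0.75 ± 0.17, 0.73 ± 0.17 and 0.76 ± 0.17 at 2, 4 and 6 h (SE). Each of these calls was lost without 0 h replicate 1 (adjusted p = 0.094, 0.094 and 0.088, edgeR) and without at least 1 other library. Ncoa2, a coactivator, was at 120 and 135 CPM at 2 h, against 174 and 194 CPM at 0 h, a log2 fold change of -0.53 ± 0.15 (adjusted p = 0.041, edgeR, and 0.34 without 2 h replicate 1 and 0.27 without 0 h replicate 2). At 6 h Ncoa2 was at 220 and 226 CPM and was not called against 0 h. Rarg had log2 fold changes of 0.45, 0.51 and 0.52 at the 3 times and was not called.

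Stra6, a gene of retinoid transport, and Stra8, which was listed with the retinoid genes as a response gene, were called higher at every time. Stra8, a regulator of entry into meiosis that was first found as a retinoic acid response gene, was at 1.75 and 1.66 CPM at 0 h, 35.9 and 39.6 CPM at 2 h, 55.6 and 45.7 CPM at 4 h, and 73.7 and 65.0 CPM at 6 h. Its log2 fold change was 4.46 ± 0.54 at 2 h and 5.33 ± 0.52 at 6 h (SE, adjusted p = 1.3e-05 and 1e-07, edgeR). Stra6, the membrane receptor for retinol-binding protein, went on rising after 2 h. It was at 2.29 and 0.692 CPM at 0 h, 5.28 and 4.42 CPM at 2 h, 11.3 and 7.96 CPM at 4 h, and 21.9 and 19.0 CPM at 6 h. The 6 h libraries were called above those at 2 h (2.08 ± 0.30, adjusted p = 8.4e-05, edgeR). Its call at 2 h was lost without 0 h replicate 2 or 2 h replicate 1 (adjusted p = 0.35 and 0.23, edgeR), and the other calls of Stra8 and Stra6 held without any one library. The synthesis genes Rdh10 and Aldh1a2 and the carriers Crabp1 and Crabp2 were not called.

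**Figure D2:**
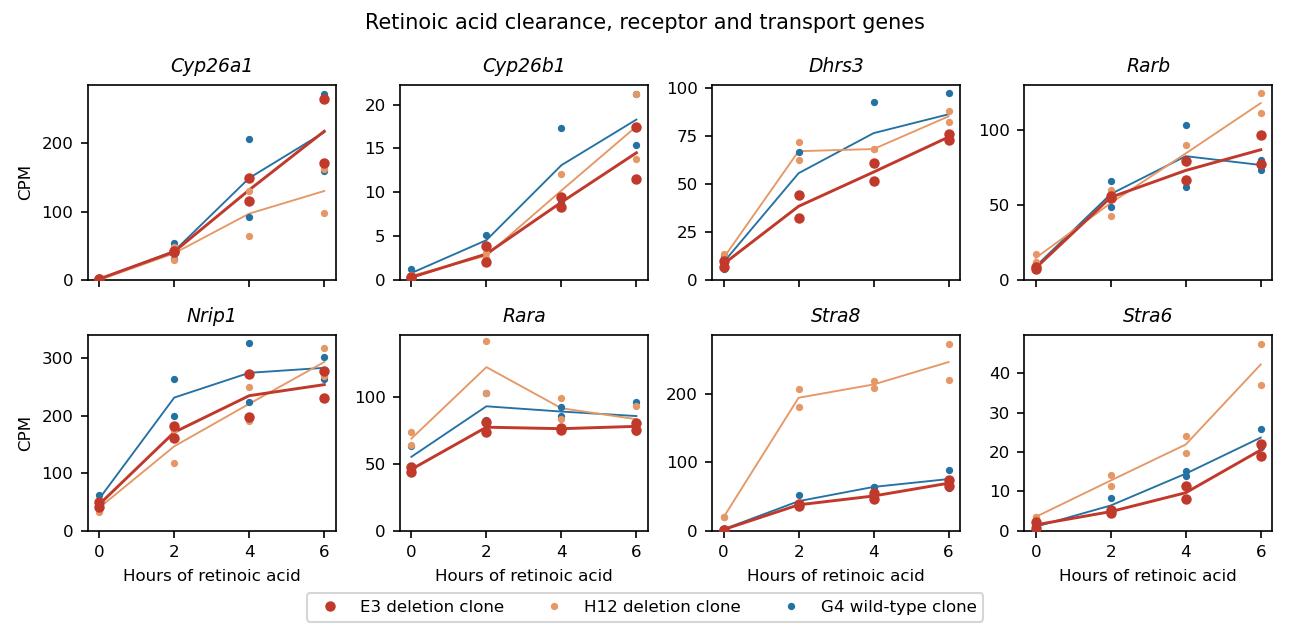
Level in CPM (vertical axis) against hours of retinoic acid for 8 retinoid genes; each point is 1 library and lines join the means of 2 libraries, for E3 (red), H12 (orange) and G4 (blue). In E3, Cyp26a1 and Stra6 were higher at 6 h (264 and 171 CPM, and 21.9 and 19.0 CPM) than at 2 h, and the step of Rarb from 2 h (54.8 and 56.0 CPM) to 6 h (96.9 and 77.3 CPM) did not pass the test.

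Genes at the 3′ ends of the Hoxb and Hoxa clusters rose in E3. Of 9 tested Hoxb genes, Hoxb3 and Hoxb4 were called higher at 2 h and Hoxb1, Hoxb2, Hoxb3, Hoxb4 and Hoxb5 at both 4 and 6 h. The levels were low throughout. Hoxb1, the 3′-most gene of the cluster (chr11:96365758-96368253, mm10), had 1 read over both libraries at 0 h, 14 reads at 2 h, 27 at 4 h and 73 at 6 h. Its levels were 0.135 and 0 CPM at 0 h, 0.704 and 1.43 CPM at 2 h, 1.74 and 1.501 CPM at 4 h, and 5.48 and 7.02 CPM at 6 h. The ratio of its summed reads at 6 h to those at 0 h was 91.8, with an exact 95% interval of 16.0 to 3676 that covers counting error only. Its adjusted p was 0.12 at 2 h, 0.03 at 4 h and 2.9e-05 at 6 h (edgeR). The call at 4 h was lost without any one of the 4 libraries (adjusted p = 0.089 to 0.28), and the call at 6 h was not. Hoxb2 (chr11:96351632-96354014) had no read at 0 h, 3 reads at 2 h, 27 at 4 h and 47 at 6 h. With a floor of 3 reads over the 2 libraries at 0 h, it was at least 7.89-fold higher at 4 h and at least 19.7-fold higher at 6 h. Its call at 4 h, unlike that at 6 h, was lost without either 0 h library (adjusted p = 0.053 and 0.092, edgeR).

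Hoxb3 (chr11:96323126-96347930) was at 0.404 and 0.277 CPM at 0 h, 3.35 and 2.14 CPM at 2 h, 6.60 and 4.27 CPM at 4 h, and 10.8 and 10.2 CPM at 6 h. Its log2 fold change was 4.87 ± 0.44 at 6 h (SE, adjusted p = 4.3e-09, edgeR). Hoxb4 (chr11:96318267-96321638) was at 0.270 and 0.277 CPM at 0 h, 2.82 and 2.85 CPM at 2 h, 4.98 and 4.50 CPM at 4 h, and 8.84 and 5.18 CPM at 6 h. Both genes rested on few reads at 0 h, 5 for Hoxb3 and 4 for Hoxb4. Their calls at 4 and 6 h held without any one library, and those at 2 h were lost without 0 h replicate 2 (adjusted p = 0.064 for Hoxb3 and 0.054 for Hoxb4, edgeR), that of Hoxb3 also without 2 h replicate 1 (0.069). Hoxb5 had no read at 0 h and 15 reads at 6 h, at least 6.29-fold more by the same floor. It overlaps the antisense transcript Hoxb5os, with which its reads may be shared. Its calls were lost without 0 h replicate 2 (adjusted p = 0.23 at 4 h and 0.051 at 6 h, edgeR), among other libraries. Hoxb6, Hoxb7 and Hoxb8 had no read at 0 h and at most 7 at 6 h, and they were not called. Hoxb9 had 12 reads at 0 h and 18 at 6 h and was not called.

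Between 6 and 2 h, Hoxb1, Hoxb2, Hoxb3 and Hoxb4 were called higher at 6 h, with adjusted p of 0.011, 0.0026, 0.00016 and 0.033 (edgeR). The call of Hoxb3 held without any one library, and the other 3 were lost without 2 h replicate 1 (adjusted p = 0.15, 0.066 and 0.19).

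In the Hoxa cluster, Hoxa3 was called higher from 2 h, Hoxa2 and Hoxa5 from 4 h and Hoxa4 at 6 h. Hoxa3 (chr6:52169062-52213067) was at 0.135 and 0.138 CPM at 0 h (2 reads), 3.17 and 1.852 CPM at 2 h, 4.36 and 3.001 CPM at 4 h, and 9.90 and 11.7 CPM at 6 h. The counted span of Hoxa3 contains Hoxa4, Hoxa5 and Hoxa6, so reads of these genes are shared with it. Hotairm1, a noncoding transcript of the same cluster, was at 27.6 and 13.4 CPM at 6 h, against 1.35 and 0.969 CPM at 0 h. The calls of Hoxa3 and Hotairm1 at 4 and 6 h held without any one library. That of Hoxa3 at 2 h was lost without 0 h replicate 2 (adjusted p = 0.054, edgeR) or 2 h replicate 1 (0.077). Those of Hoxa2, Hoxa4 and Hoxa5 were lost without at least 1 library each (adjusted p of up to 0.23, 0.32 and 0.32).

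Of the 10 tested Hoxc and Hoxd genes, 0 were called at any of the 3 times by edgeR or by DESeq2, and 0 had an unadjusted p under 0.05 (edgeR). Of 23 tested neighbours of the Hoxb cluster, Ube2z was called higher and Abi3 lower at 2 h, and Copz2 and Ttll6 higher at 6 h. All 4 calls were lost without 1 or more libraries (adjusted p of up to 0.42, 0.33, 0.31 and 0.53, edgeR). Over all genes tested, 4.04% were called at 2 h in either direction and 3.33% were called higher at 6 h.

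**Figure D3:**
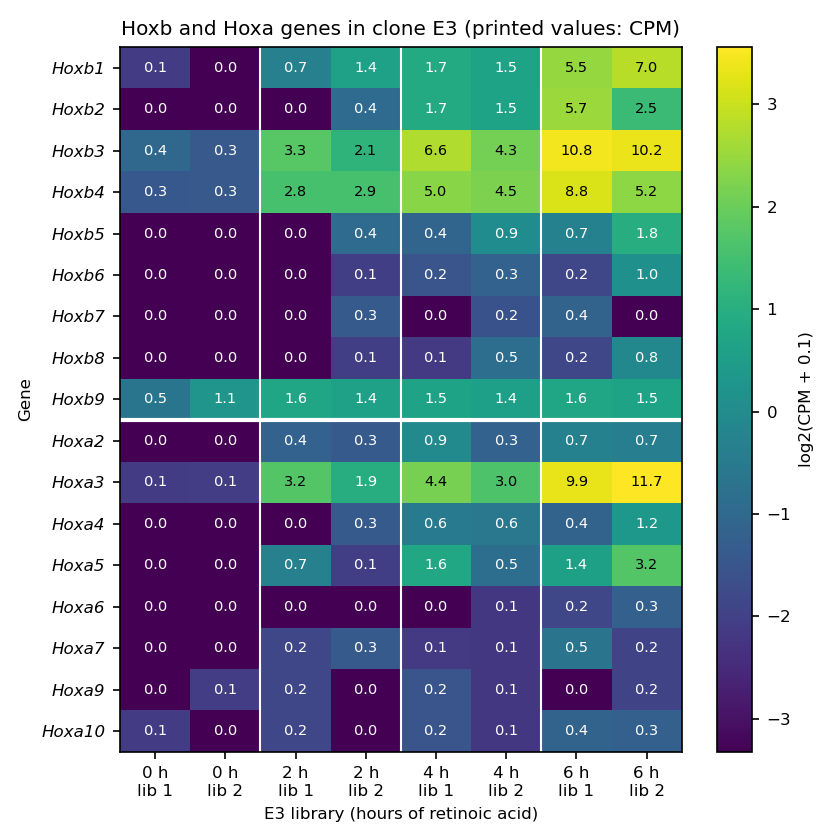
Levels of 9 Hoxb and 8 Hoxa genes (rows) in the 8 E3 libraries (columns, 2 per time); the colour is log2(CPM + 0.1) and the printed value is CPM. At 6 h Hoxb3 reached 10.8 and 10.2 CPM and Hoxa3 9.90 and 11.7 CPM, and Hoxb6, Hoxb7 and Hoxb8 had at most 7 reads.

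Hox proteins bind DNA with partners of the Meis and Pbx families. Meis2 was at 41.4 and 36.2 CPM at 0 h, 84.5 and 88.1 CPM at 2 h, 178 and 141 CPM at 4 h, and 288 and 260 CPM at 6 h. It was called at every time, at 2 h only with all 4 libraries (adjusted p = 0.13 to 0.31 without one of them, edgeR). Pbx2 was called from 2 h (1.05 ± 0.19, adjusted p = 0.001, edgeR, and 0.076 without 0 h replicate 2 and 0.068 without 2 h replicate 1), and its call at 4 h was lost without 1 library. Cdx1, a caudal homeobox gene that acts upstream of Hox genes, was at 1.21 and 0.415 CPM at 0 h, 8.28 and 9.55 CPM at 2 h, and 9.72 and 11.03 CPM at 6 h. Meis1 was first called at 6 h. It was at 20.1 and 21.4 CPM at 0 h, 15.5 and 20.9 CPM at 2 h, 35.1 and 35.3 CPM at 4 h, and 70.3 and 57.5 CPM at 6 h, with no overlap between the 6 h libraries and the rest. Meis1 had a log2 fold change of -0.18 ± 0.26 at 2 h and 1.62 ± 0.24 at 6 h (adjusted p = 0.76 and 2.4e-05, edgeR). The calls of Meis1 and Cdx1 were kept whichever library was left out. Pbx3 and Pknox2 were not called against 0 h and were called higher at 6 h than at 2 h. Neither call held without 2 h replicate 1 (adjusted p = 0.11 and 0.057, edgeR) or 6 h replicate 1 (0.054 and 0.11). Of 11 tested cofactor and caudal genes, 3 were called higher at 2 h and 3 at 4 h, beside 1.5% and 2.01% of all genes. By edgeR 0 of the 11 were called lower, with 1, 0 and 0 lower genes at an unadjusted p under 0.05 at 2, 4 and 6 h (edgeR) and 0 called lower by DESeq2.

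Single genes of other pathways rose as well. Cdk15, a cyclin-dependent kinase family member, was among the 12 largest rises at 2 h, with 13.0 and 16.2 CPM, against 1.75 and 2.08 CPM at 0 h, and it reached 31.8 and 34.4 CPM at 6 h. Foxa1, a forkhead pioneer factor of endoderm, had 38 reads at 6 h, against 2 reads at 0 h, a ratio of 23.9 with an interval of 6.18 to 204. Wnt8a, a Wnt ligand, was the only one of 21 tested Wnt pathway genes called higher against 0 h. It was called at every time, beside 1.5%, 2.01% and 3.33% of all genes. It was at 4.04 and 4.15 CPM at 0 h, 16.4 and 14.2 CPM at 2 h, 24.9 and 17.2 CPM at 4 h, and 26.7 and 17.0 CPM at 6 h. Its call at 2 h was at an adjusted p of 0.053 without 0 h replicate 2 and 0.055 without 2 h replicate 1 (edgeR). Wnt5a was called lower at 4 h, a call lost without 0 h replicate 1 or either 4 h library (adjusted p = 0.14 to 0.20). Ano1, a calcium-activated chloride channel, was at 5.26 and 4.84 CPM at 0 h, 13.9 and 18.2 CPM at 2 h, 17.7 and 17.4 CPM at 4 h, and 23.2 and 22.9 CPM at 6 h. Cdk15 and Ano1 were called at 2 and 6 h whichever library was left out.

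Smad7, an inhibitor of TGF-beta family signalling, was called lower at 2 and 4 h and was the only one of 16 tested Nodal and BMP pathway genes called against 0 h. It was at 192 and 159 CPM at 0 h, 102 and 106 CPM at 2 h, 132 and 118 CPM at 4 h, and 131 and 132 CPM at 6 h. The call at 2 h held without any one library, and that at 4 h was lost without 0 h replicate 1 or either 4 h library (adjusted p = 0.092 to 0.24, edgeR). Fgfr2, a fibroblast growth factor receptor, and Spred2, an inhibitor of ERK signalling, were the 2 of 18 tested FGF and ERK feedback genes called. Both were called higher at 6 h, as were 3.33% of all genes. Fgfr2 was at 240 and 188 CPM at 6 h, against 132 and 131 CPM at 0 h, and Spred2 at 765 and 755 CPM, against 380 and 552 CPM. Both calls were lost without 0 h replicate 1 (adjusted p = 0.12 and 0.29, edgeR) or 6 h replicate 1 (0.35 and 0.10), and each without 1 further library. Eomes, a T-box factor of early mesoderm and endoderm, was the only one of 7 tested primitive streak and mesoderm genes called, higher at 2 and 4 h, with 3.70 and 2.14 CPM at 2 h, against 0.674 and 0.554 CPM at 0 h. The call at 2 h was lost without either 0 h library or 2 h replicate 1 (adjusted p = 0.076 to 0.30, edgeR), and that at 4 h without any one of the 4 libraries compared (0.10 to 0.23).

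A later set was first called higher at 6 h, 289 genes, beside 238 first called at 2 h and 155 at 4 h. The 289 became 67 without 6 h replicate 1, 143 without 6 h replicate 2, and 146 and 150 without 0 h replicate 1 and 2. The 155 became 35 without 4 h replicate 1, 66 without 4 h replicate 2, 74 and 95 without 0 h replicate 2 and 1, and 258 without 2 h replicate 1. The 238 became 64 without 2 h replicate 1, and 106 and 77 without 0 h replicate 1 and 2. Pax3 and Pax7, paired-box factors, and Lmx1b, a LIM homeobox factor, belong to it. Pax3 was at 4.60 and 1.84 CPM at 6 h, against 0.674 and 0.553 CPM at 0 h. Pax7 was at 3.36 and 5.51 CPM, against 0.944 and 0.830 CPM, and Lmx1b at 7.601 and 8.02 CPM, against 1.89 and 3.598 CPM. Of 17 tested neural progenitor markers, Pax3 and Msx1 were called higher at 6 h, beside 3.33% of all genes. The list's summed level was 139 and 100 CPM at 6 h, against 174 and 96.7 CPM at 0 h. The calls of Pax3, Msx1, Pax7 and Lmx1b at 6 h were each lost without at least 1 library (adjusted p of up to 0.38, 0.36, 0.06 and 0.23, edgeR).

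Gata6, a zinc finger factor of endoderm, was called at 6 h (1.30 ± 0.36, adjusted p = 0.025, edgeR, and 0.31 without 0 h replicate 1 and 0.38 without 6 h replicate 2). The summed level of the 20 extra-embryonic endoderm markers was 1141 and 1243 CPM at 6 h, against 1427 and 1272 CPM at 0 h. Of 8 tested trophoblast markers, 0 were called at any time by edgeR or DESeq2, and 0, 1 and 2 had an unadjusted p under 0.05 at 2, 4 and 6 h (edgeR). Of 13 tested 2-cell-like markers, 0 were called by either tool, and 0, 1 and 0 had an unadjusted p under 0.05. In bulk samples, fewer cells of a type and less RNA per cell cannot be told apart.

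Among pluripotency genes, Socs3 and Stat3 were called lower from 2 h, and the core factors were not called. Pou5f1, a core factor, was at 157 and 167 CPM at 6 h, against 206 and 160 CPM at 0 h. Sox2 was at 71.4 and 94.0 CPM, against 103 and 113 CPM at 0 h, and Nanog at 69.3 and 96.5 CPM, against 86.3 and 90.3 CPM. Of the 13 tested general pluripotency genes, 0 were called at any time by edgeR or DESeq2, and 0, 1 and 1 had an unadjusted p under 0.05 at 2, 4 and 6 h (edgeR). Socs3, a feedback inhibitor and target of LIF signalling through Stat3, was at 35.9 and 30.7 CPM at 0 h, 14.4 and 13.1 CPM at 2 h, 6.47 and 11.3 CPM at 4 h, and 5.48 and 7.85 CPM at 6 h. Its log2 fold change at 6 h was -2.31 ± 0.31 (SE, adjusted p = 5.9e-06, edgeR), and its call at 2 h was lost without 2 h replicate 1 (adjusted p = 0.086) and lay at the threshold without 2 h replicate 2 (0.05). Stat3 itself was at 55.1 and 63.1 CPM at 6 h, against 116 and 150 CPM at 0 h. That call held without any one library, unlike those at 2 and 4 h (adjusted p of up to 0.35 and 0.42). Klf4 and Klf5, Krüppel-like factors of the naive state, were called lower at 6 h. Klf4 was at 53.2 and 57.6 CPM at 0 h, 54.4 and 59.7 CPM at 2 h, 23.1 and 41.7 CPM at 4 h, and 19.1 and 24.7 CPM at 6 h. Both calls were lost without 6 h replicate 1 (adjusted p = 0.15 and 0.20, edgeR) or 0 h replicate 2 (0.061 and 0.097). Of 16 tested naive genes, 2 were called lower at 2 and 4 h and 4 at 6 h, beside 2.54%, 2.91% and 1.91% of all genes. The median log2 fold change over the 16 was -0.30 at 6 h, beside -0.0002 over all genes.

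Otx2 and Foxd3, factors of the formative state, and Lef1, a Wnt effector, were also called lower. Otx2 was at 20.6 and 23.5 CPM at 0 h, 7.22 and 8.12 CPM at 2 h, 6.60 and 8.66 CPM at 4 h, and 6.01 and 8.19 CPM at 6 h. Its log2 fold change was -1.52 ± 0.31 at 2 h (adjusted p = 0.0037, edgeR) and -1.63 ± 0.31 at 6 h. Its calls were lost without replicate 1 of the treated group at 2, 4 and 6 h (adjusted p = 0.086, 0.066 and 0.054). Foxd3 was called lower at 4 and 6 h. The call at 4 h was lost without 0 h replicate 2 (adjusted p = 0.099, edgeR) or 4 h replicate 1 (0.24), and that at 6 h without any one of the 4 libraries compared (0.072 to 0.25). Lef1 (chr3:131110297-131224357) fell and came back. It was at 138 and 169 CPM at 0 h, 40.9 and 54.1 CPM at 2 h, 48.0 and 56.5 CPM at 4 h, and 106 and 124 CPM at 6 h. Its falls at 2 and 4 h were called whichever library was left out. The 6 h libraries were called above those at 2 h (1.27 ± 0.23, adjusted p = 0.0016, edgeR, and 0.066 without 2 h replicate 1). Fgf15 was called lower and Dnmt3a, a DNA methyltransferase, higher at 6 h. Both calls were lost without 6 h replicate 1 (adjusted p = 0.31 and 0.074, edgeR), that of Fgf15 also without 0 h replicate 1 (0.16) and that of Dnmt3a without 0 h replicate 2 (0.15).

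**Figure D4:**
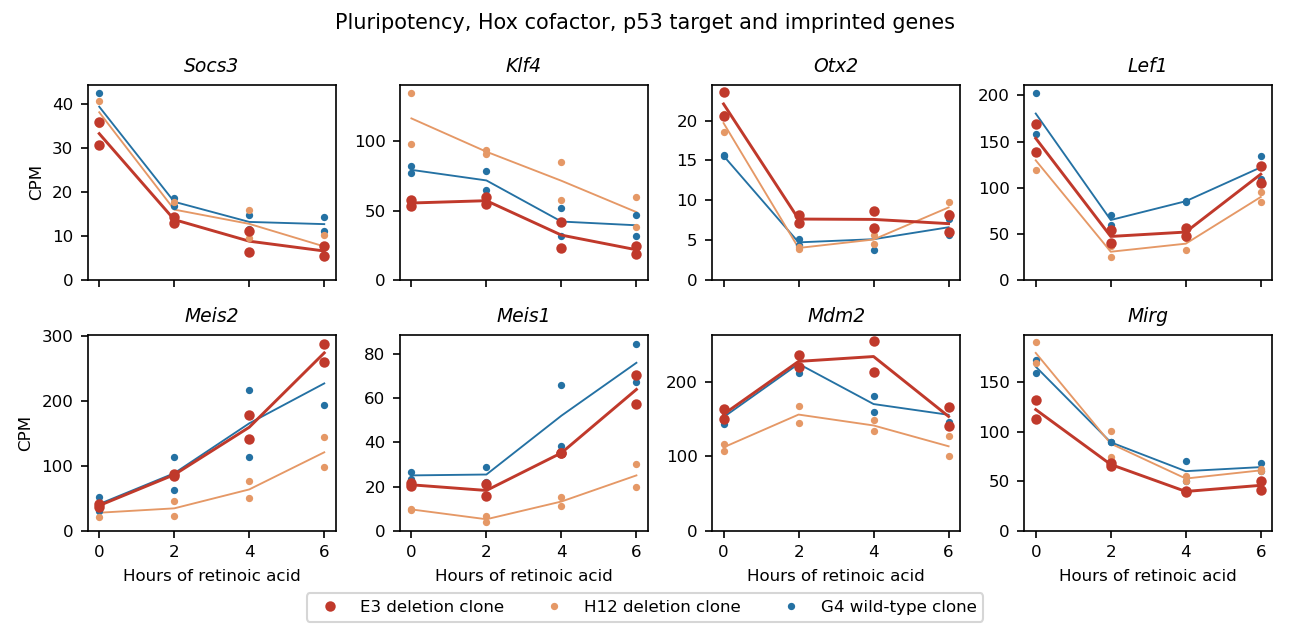
Level in CPM (vertical axis) against hours of retinoic acid for 8 genes; points are libraries and lines join means, for E3 (red), H12 (orange) and G4 (blue). In E3, Socs3 was at 14.4 and 13.1 CPM and Otx2 at 7.22 and 8.12 CPM by 2 h, Lef1 was low at 2 and 4 h and at 106 and 124 CPM at 6 h, and Meis2 was at 84.5 and 88.1 CPM at 2 h and 288 and 260 CPM at 6 h.

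Some genes moved back towards their 0 h level by 6 h. Of 404 genes called lower at 2 h, 142 were called higher at 6 h than at 2 h and 83 were called lower at all 3 times. Of 238 genes called higher at 2 h, 24 were called lower at 6 h than at 2 h and 131 were called higher at all 3 times. Over all genes tested, 3.92% were called higher at 6 h than at 2 h and 1.64% lower. The 142 of 404 became 7 of 37 without 2 h replicate 1, 41 of 71 without 0 h replicate 2, 65 of 404 without 6 h replicate 1 and 55 of 404 without 6 h replicate 2. The 24 of 238 became 0 of 64 without 2 h replicate 1, 5 of 106 and 9 of 77 without 0 h replicate 1 and 2, 2 of 238 and 3 of 238 without 6 h replicate 1 and 2, and 58 of 247 without 2 h replicate 2. The 83 became 10 without 0 h replicate 2, 13 without 2 h replicate 1, 43 without 4 h replicate 1, 23 and 53 without 6 h replicate 1 and 2, and 129 without 0 h replicate 1. The 131 became 52 without 0 h replicate 2, 59 without 2 h replicate 1, 77 without 0 h replicate 1 and 87 without 2 h replicate 2. Btbd8 was at 16.7 and 21.9 CPM at 0 h, 5.99 and 6.27 CPM at 2 h, 12.3 and 11.7 CPM at 4 h, and 15.6 and 18.9 CPM at 6 h. Both its fall and its return were called whichever library was left out. Ccdc155, which encodes a protein of the meiotic telomere complex, was at 6.47 and 5.67 CPM at 0 h, 1.41 and 1.852 CPM at 2 h, 4.23 and 2.54 CPM at 4 h, and 8.84 and 6.51 CPM at 6 h. Its fall was at an adjusted p of 0.058 without 2 h replicate 1 (edgeR). Erg, an ETS factor, had the largest fall by the named-gene rule at 2 h, with 0.176 and 0.285 CPM, against 1.89 and 1.52 CPM at 0 h. That call was lost without any one of the 4 libraries (adjusted p = 0.091 to 0.27). The comparison of 2 h with 0 h and that of 6 h with 2 h share the 2 h libraries. Genes picked for a change at 2 h are thus favoured to show a move back at 6 h. The part of this in the counts was not tested.

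Falls that lasted to 6 h included Gad1, a glutamate decarboxylase, at 9.03 and 10.4 CPM at 0 h, 2.64 and 1.71 CPM at 2 h, 2.12 and 1.62 CPM at 4 h, and 3.89 and 3.34 CPM at 6 h. Gad1 overlaps an antisense transcript, and its call at 6 h was lost without 0 h replicate 2 or either 6 h library (adjusted p = 0.063 to 0.10, edgeR). Dapp1, an adaptor of phosphoinositide signalling, was at 15.6 and 17.5 CPM at 6 h, against 39.0 and 63.4 CPM at 0 h, and its calls held without any one library. Xaf1 and Ddx60, both known as interferon-inducible genes, were called lower at 4 and 6 h, Xaf1 with 1.06 and 1.17 CPM at 6 h, against 6.34 and 8.58 CPM at 0 h. Ly6g6e was called lower at 4 and 6 h and had the largest fall by the named-gene rule at 6 h, with 0.884 and 0.334 CPM, against 9.03 and 6.50 CPM at 0 h. At 4 h the calls of Xaf1 and Ly6g6e were lost without 4 h replicate 1 (adjusted p = 0.16 and 0.12, edgeR) and each without 1 other library, and at 6 h that of Ddx60 without 6 h replicate 1 (0.067).

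Of 8 tested nuclear long noncoding RNAs, Mirg and Meg3, both of the imprinted Dlk1-Dio3 domain, were called lower. Mirg was at 113 and 132 CPM at 0 h, 65.2 and 68.8 CPM at 2 h, 39.8 and 39.6 CPM at 4 h, and 50.2 and 41.6 CPM at 6 h. It was called at all 3 times, at 2 h not without 0 h replicate 2 (adjusted p = 0.082, edgeR) or 2 h replicate 1 (0.088). Meg3 was called lower at 4 and 6 h, with 255 and 244 CPM at 6 h, against 445 and 650 CPM at 0 h, and both calls were lost without 0 h replicate 2 (adjusted p = 0.17 and 0.16), among other libraries. Of 13 integrated stress response genes, Trib3 was called lower at 4 h, and Slc7a11 and Cth at 6 h, beside 2.91% and 1.91% of all genes. Each of these calls was lost without 3 or 4 of the libraries compared, among them 0 h replicate 2 (adjusted p = 0.20, 0.11 and 0.28, edgeR).

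Of 16 tested p53 targets, Mdm2, the ubiquitin ligase that degrades p53, and Sesn1, a stress-inducible sestrin, were called higher at 2 and 4 h, and Sesn1 alone at 6 h. Mdm2 was at 163 and 149 CPM at 0 h, 219 and 235 CPM at 2 h, 255 and 212 CPM at 4 h, and 166 and 140 CPM at 6 h. Mdm2, Plk2, Aen and Eda2r were called lower at 6 h than at 2 h. The Mdm2 and Eda2r calls were each lost without any one of at least 3 of the 4 libraries compared (adjusted p = 0.075 to 0.34), and those of Sesn1, Plk2 and Aen without 1 or more. The median log2 fold change of the 16 genes against 0 h was 0.44 at 2 h, 0.56 at 4 h and -0.23 at 6 h, beside medians over all genes of 0.02, 0.01 and 0.00. Of 14 tested immediate early genes, 0 were called at any time by edgeR or DESeq2, and 2, 0 and 3 had an unadjusted p under 0.05 at 2, 4 and 6 h (edgeR).

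A few of the largest rises at 2 h rested on 1 library. Itgb6 was at 6.34 and 0.998 CPM at 2 h, against no read at 0 h. Togaram2 was at 13.7 and 0.998 CPM, against 0.135 and 0.277 CPM at 0 h, and Ttc23l at 21.7 and 3.99 CPM, against 0.270 and 0.830 CPM. In 12 of the 238 genes called higher at 2 h, replicate 1 exceeded replicate 2 more than 3-fold, and the reverse held in 0. Without 2 h replicate 1, the log2 fold change of Togaram2 was 2.17 (adjusted p = 0.78, edgeR) and that of Ttc23l 2.81 (adjusted p = 0.47), and Itgb6 had an adjusted p of 0.19.

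Genes called lower at 2 and 4 h had longer counted spans than genes called higher, and the gap in the medians closed or turned without 0 h replicate 2. The median counted span of genes called lower was 62.04 kb at 2 h, 73.3 kb at 4 h and 46.2 kb at 6 h. That of genes called higher was 29.8 kb, 33.5 kb and 45.6 kb at these times, beside 22.4 kb for all genes tested. Without 0 h replicate 2, genes called lower had medians of 40.3, 45.2 and 26.5 kb and genes called higher 43.8, 44.4 and 54.1 kb. Genes over 100 kb made up 33.9% of those called lower at 2 h and 14.7% of those called higher, beside 13.8% of all genes tested. Without 0 h replicate 2 this share was 28.2% of genes called lower and 20.8% of those called higher at 2 h, and 37.2% and 24.6% at 4 h. Without 2 h replicate 1 the medians at 2 h were 92.1 kb for genes called lower and 46.9 kb for genes called higher. Without 4 h replicate 1 those at 4 h were 103 and 30.7 kb. The median level was 31.0 CPM for genes called lower at 2 h, 41.4 CPM for genes called higher and 20.3 CPM for all genes tested. The part of read number in the span lengths was not tested.

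Most genes called in E3 changed in the same direction in the other clones. The share of same-sign changes over all genes tested was not computed. Each clone was set against its own 0 h libraries. Of 460 genes called higher in the mean of 2, 4 and 6 h against 0 h in E3 (2.89%), 338 were also called higher in G4 (73.5% of the E3 genes and 61.6% of the 549 in G4, which were 3.45% of genes tested). In H12, 329 were called higher (71.5% of the E3 genes and 56.6% of the 581 in H12, which were 3.66% of genes tested). Of 640 called lower in E3 (4.03%), 301 were called lower in G4 (47.0% of the E3 genes and 68.2% of 441, or 2.77% of genes tested) and 277 in H12 (43.3% of the E3 genes and 55.4% of 500, or 3.15% of genes tested). Without E3 0 h replicate 2, 169 were called higher and 103 lower, of which 159 and 71 were called the same way in G4. Without E3 0 h replicate 1, 209 were called higher and 583 lower, of which 176 and 262 were. Of the genes called in E3, 0 were called in the opposite direction in G4 or H12, with all E3 libraries or without any one of them. The test of the difference in early response between E3 and G4 called 0 genes of 15896 (0%) by edgeR and by DESeq2, with 252 and 167 at an unadjusted p under 0.05. Between E3 and H12 it called 1 gene, Aff3 (0.00629%), with 410 at an unadjusted p under 0.05 (edgeR). These unadjusted counts lie below what that threshold gives when no gene differs. The few calls therefore do not show that the responses were equal.

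**Figure D5:**
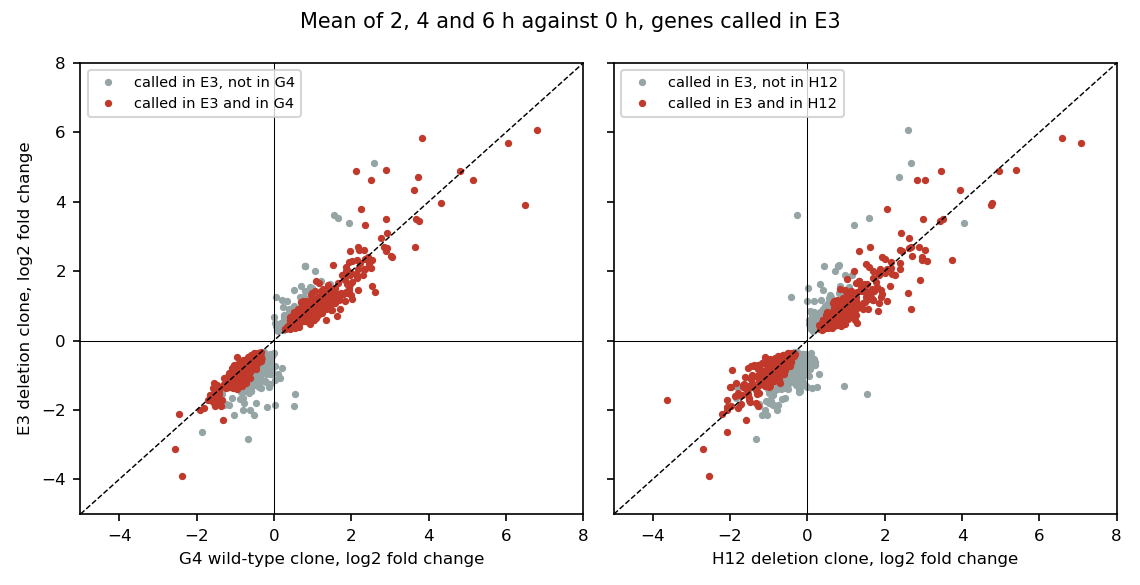
Log2 fold change of the mean of 2, 4 and 6 h against 0 h in E3 (vertical axis) against the same in G4 (left) and H12 (right), for the genes called in E3; red points were also called in the other clone, and the dashed line marks equal change. Most points lie in the lower left and upper right of each panel, where both changes have the same sign: 459 of 460 rising genes and 631 of 640 falling genes had the same sign in G4. The same-sign share over all genes tested was not computed.

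For the Hoxb genes the deletion clone E3 can be set beside H12 and G4, here at chosen times. Hoxb1 at 6 h was at 5.48 and 7.02 CPM in E3, 3.09 and 1.84 CPM in H12, and 6.49 and 4.85 CPM in G4. Hoxb2 was at 5.66 and 2.51 CPM in E3, 2.77 and 1.13 CPM in H12, and 5.21 and 2.26 CPM in G4. Hoxb3 was at 6.60 and 4.27 CPM in E3 at 4 h, 5.42 and 5.77 CPM in H12, and 11.1 and 7.47 CPM in G4. At 6 h Hoxb3 was at 10.8 and 10.2 CPM in E3, 12.2 and 11.4 CPM in H12, and 10.4 and 10.7 CPM in G4. Hoxb4 at 4 h was at 4.98 and 4.50 CPM in E3, against 9.27 and 5.72 CPM in G4. Its rise at 4 h differed by -0.75 ± 1.14 between E3 and G4 (log2, SE, unadjusted p = 0.51, edgeR). Between E3 and H12 the difference at 4 h was -0.68 ± 1.22 (unadjusted p = 0.58, edgeR). At 2 h it was 0.22 ± 1.21 between E3 and G4 (unadjusted p = 0.86, edgeR). Hoxb4 at 6 h had 81 reads over the 2 libraries in E3, 119 in H12 and 131 in G4. In the same order, Hoxb5 at 6 h had 15, 16 and 26 reads and Hoxb6 7, 7 and 15. Hoxb7 had 2, 6 and 9 reads and Hoxb8 6, 11 and 23. E3 had the fewest reads in each, level with H12 for Hoxb6. These sums are few reads and are not scaled to library size. Of the 9 tested Hoxb genes, 0 passed the test of a different early response between E3 and G4 or H12 by edgeR or DESeq2, with 1 and 0 at an unadjusted p under 0.05 (edgeR). That gene was Hoxb3, whose early rise differed by -2.59 ± 1.20 on the log2 scale between E3 and G4 (SE, adjusted p = 1, edgeR). At 0 h Hoxb3 had 5 reads in E3 and 1 in G4, which limits this estimate, and its levels at 6 h overlapped.

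Levels at 0 h differed between the clones for some of these genes. At 0 h, 74 genes were called different between E3 and G4 (0.466%), and 1722 between E3 and H12 (10.8%). Stra8 was at 1.75 and 1.66 CPM at 0 h in E3, against 19.5 and 19.8 CPM in H12, and at 73.7 and 65.0 CPM at 6 h in E3, against 220 and 272 CPM in H12. Its response did not pass the test of a difference between the clones (1.42 ± 0.64, adjusted p = 1, edgeR). Meis2 at 6 h was at 288 and 260 CPM in E3, 144 and 98.1 CPM in H12, and 260 and 193 CPM in G4. The rise of Meis2 did not pass the test of a difference between E3 and either clone at 2, 4 or 6 h. Against H12 the difference was 0.82 ± 0.48 at 2 h and 0.85 ± 0.47 at 4 h (log2, SE, unadjusted p = 0.097 and 0.080, edgeR).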

How the data were processed

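Nuclear RNA was prepared with ribosomal RNA depletion and a directional kit and read in pairs, with Drosophila cells mixed in for calibration, per the labels' protocols; STAR, Bowtie2, SAMtools, DESeq2, mm10 and dm6 are named in the submitters' processing notes, and the read counter is not given in the sources used here. The authors' deposited signal is reads per transcript divided by 1 size factor per library, and the deposited table also holds the authors' log2 fold changes and adjusted p-values, which were used only where named. Whole reads were recovered from the deposited signal: 100% of values came within 0.1 read of a whole number. Transcripts that share a span had equal reads in 3746 of 3746 sets, and 1 transcript per gene was kept. Transcripts with no gene name, 81 of 29039 with 0.00814% of the reads, were left out.

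Genes were tested with edgeR 4.0.16 in R 4.3.3 (quasi-likelihood, TMM, filterByExpr) in 1 fit over the 42 libraries of the 3 clones, which kept 15896 of 19403 genes with reads. CPM values use TMM library sizes, and SEs are the log2 fold change over the square root of F. The procedure was tested on simulated data. Alternatives were DESeq2 1.42.0, limma 3.58.1, 2 other scalings, no filter, fewer libraries, a replicate block, and each library left out. Intervals and floors cover counting error only.

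The members and gene lists were chosen with earlier results of these data known. Named genes were all tested members of the retinoid, Hoxa, Hoxb and cofactor lists, up to 4 called members of each other list, a few pluripotency genes, and the 12 largest rises and falls at a mean of at least 1 CPM with no overlap of libraries; Ano1 and Sall3 fall outside this rule and were chosen after their values were seen. Some genes that fall under the rule are not reported here.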

Additional observations from a re-analysis of the deposited data

Results flagged for a closer look

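The early response differed between E3 and H12 in Aff3, a subunit of transcription elongation complexes (chr1:38175991-38627244, mm10), by a test of the difference itself. Aff3 in E3 was at 250 and 253 CPM at 0 h, 231 and 218 CPM at 2 h, 204 and 186 CPM at 4 h, and 289 and 258 CPM at 6 h; in H12 it was at 115 and 108, 187 and 143, 218 and 202, and 275 and 267 CPM at the same times, and in G4 at 227 and 224, 208 and 190, 226 and 197, and 276 and 236 CPM. The difference of responses was -1.06 ± 0.18 (log2, SE, adjusted p = 0.036, edgeR) for the mean of 2, 4 and 6 h and -1.28 for 4 h alone. The clones differed at 0 h, where the log2 level in E3 was 1.17 above that in H12 (adjusted p = 4.8e-06, edgeR), and the call for the early mean was lost when any of 13 of the 16 libraries compared was left out alone.

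Sall3, a zinc finger factor, differed at 6 h: the difference of responses between E3 and H12 was 1.29 ± 0.21 (log2, SE, adjusted p = 0.011, edgeR). It was at 9.57 and 9.55 CPM at 0 h and 26.3 and 26.1 CPM at 6 h in E3, and at 25.2 and 25.7 CPM at 0 h and 28.0 and 29.1 CPM at 6 h in H12. At 0 h the log2 level in E3 was -1.41 relative to that in H12 (adjusted p = 9.3e-08, edgeR). In G4 it was at 16.3 and 20.6 CPM at 0 h and 29.9 and 28.8 CPM at 6 h. For the early mean the difference between E3 and H12 was 0.72 ± 0.17 (log2, SE) and was not called (adjusted p = 0.60, edgeR). At 2 and 4 h this difference was 0.21 and 0.66 (log2), and neither was called. The adjustment was made over the genes within each comparison, not over the times and clones compared. The 6 h difference was not recomputed under the alternatives.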

How the results depend on the processing

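Counts of called genes in the 5 comparisons within E3 stayed within 1.5 times of those reported under the other scalings, tools, filter and sample set, from 431 (compared libraries only) to 734 (DESeq2) at 2 h, 654 to 815 at 4 h, 745 to 847 at 6 h, 973 to 1181 for the early mean and 697 to 1060 for 6 h against 2 h. Leaving out 1 library gave 101 to 717, 228 to 710, 295 to 621, 272 to 1262 and 112 to 601. For the early mean, limma-trend called 508 higher and 465 lower, against 460 and 640 by edgeR.

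Replicate numbers are shared between times, and deviations of same-numbered libraries correlated at 0.202 to 0.434 over 11962 genes; with 2 libraries per group and no batch in the labels, pairing is a hint only. With the replicate block, 1237, 1358, 1307, 1781 and 1662 genes were called, including all those reported. The difference between E3 and G4 called 0 under every alternative, 0 to 0 without 1 library, with 239 to 492 genes at an unadjusted p under 0.05. That between E3 and H12 called 3 by DESeq2 and 2 by limma-trend and by limma on the deposited signal, and 0 to 1 without 1 library.

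Of 1326 values of named calls under other settings, 1277 kept their call and 49 lost it, and of 680 without 1 library, 423 kept it and 257 lost it; 0 changed direction. The most were lost without 0 h replicate 2 (55) and 2 h replicate 1 (47). DESeq2 gave no adjusted p for 2 of the calls. The causes were not tested. Hox genes at 0 h rest on 0 to 12 reads, which limits their fold changes.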
